A study of Rattus norvegicus with 37 samples.

Results

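The genes examined in rat liver were 3 fibrillar collagen chains (Col1a1, Col1a2 and Col3a1), the mesenchymal and myofibroblast genes Acta2 and Vim, the cytokine gene Tgfb1, the matrix protease gene Mmp2 and the protease inhibitor gene Timp1. They were chosen by their Ensembl identifiers and make up 8 of the 24613 genes in the count table. All 8 were followed in all 8 groups of rats. Of the 8 genes, 7 had counts and could be tested. Col1a2 (ENSRNOG00000011292) had 0 counts in 37 of 37 libraries.

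Scar tissue in the liver is laid down mainly by hepatic stellate cells, which store vitamin A at rest and turn into contractile, collagen-secreting myofibroblasts when activated. Transforming growth factor beta is the best known activating signal, smooth muscle actin is the usual marker of the activated state, and collagens I and III are the main fibres that are deposited. How much matrix persists depends on proteases such as MMP2 and on inhibitors such as TIMP1. In whole liver these transcripts also come from portal fibroblasts, vascular smooth muscle, endothelium and immune cells.

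The rats were female Sprague-Dawley animals, 8 to 9 weeks old at injury by an estimate from weight, and the RNA was poly(A) RNA of whole liver. The SCI + In-Cage Activity set held uninjured rats in standard cages (No SCI + Standard), rats with a contusion (25 g-cm) at thoracic level T2 in tiny cages (CONT SCI + Tiny) and rats with the same contusion in large cages (CONT SCI + Large), 5 rats each. The SCI + Exercise set held uninjured rats (No SCI, 4 rats), rats with the contusion (CONT SCI, 4 rats), rats with a complete T2 transection (TX SCI, 4 rats), and contused rats that swam (CONT SCI + SWIM, 5 rats) or walked in shallow water (CONT SCI + SWW, 5 rats), all in tiny cages. Per the labels, livers were taken at 11.5 weeks after contusion, at 8.5 weeks after transection and at an equivalent age in uninjured rats, and exercise began on day 10 and lasted 8 weeks. The study's own text gives a later start, a longer programme and a later collection for the exercised rats, so training and time after injury cannot be told apart there. Transected and contused rats also differed in time after injury. The study's text places all uninjured rats at the equivalent of 11.5 weeks, so TX SCI and No SCI differed in this time as well. Injured rats shared anaesthesia, surgery, an antibiotic and an analgesic. Uninjured rats of the In-Cage set differed from both injured groups in cage size as well as injury. The rats were caged in pairs, and which rats shared a cage is not stated in the sources used here, so cage mates may share part of their spread.

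Total counts ran from 20066978 to 25130252 per library in the In-Cage set (median 23131856) and from 26190364 to 36761953 in the Exercise set (median 32459604). These ranges did not overlap, so set and depth cannot be told apart. Levels are given as CPM, the counts of a gene per 1000000 counts of its library, after the library total was scaled by edgeR's TMM factor. This scaling moves a level away from the plain quotient, as in replicate 1 of No SCI + Standard (87 Col1a1 counts of 21379844, 4.93 CPM). CPM is not divided by transcript length, so levels are compared between rats and not between genes. Differences are log2 fold changes with their standard error (SE) from edgeR's quasi-likelihood test, and a gene was called at a Benjamini-Hochberg adjusted p under 0.05 over all genes tested.

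No member was called by edgeR in any of the 11 comparisons within a set. Of these 77 tests, 10 (13%) had an unadjusted p under 0.05, against 2.9% to 34.3% of all genes in the same comparisons. DESeq2, the alternative tool, called 4 (5.19%), against 0.0252% to 21.5% of all genes. The members that came nearest were Col1a1 and Timp1 between injured and uninjured rats of the In-Cage set, and Tgfb1 and Acta2 between exercised and sedentary contused rats. Across the sets, Col1a1, Tgfb1, Mmp2 and Timp1 were each called in at least 1 of 2 comparisons, in which 45.1% and 51.4% of all genes were called. Within groups, at least 6 of the 7 members deviated in the same direction in 25 of 37 rats, a count not made for other genes. In bulk liver, fewer cells of a type and less RNA per cell cannot be told apart, and this holds for every difference below.

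The regulatory sequence next to 4 of the members is shown because they were called between the contused rats of both sets (Tgfb1, Timp1) or formed the pair with the closest ranks in the Exercise set (Acta2 and Vim). RefSeq (GRCr8) held a promoter entry for 5 of the 8 members, and each line gives the 250 bases before the annotated start, 5′ to 3′. Capitals mark a match on either strand to 1 of the motifs searched.
Acta2, chr1:241172504-241172753, minus strand: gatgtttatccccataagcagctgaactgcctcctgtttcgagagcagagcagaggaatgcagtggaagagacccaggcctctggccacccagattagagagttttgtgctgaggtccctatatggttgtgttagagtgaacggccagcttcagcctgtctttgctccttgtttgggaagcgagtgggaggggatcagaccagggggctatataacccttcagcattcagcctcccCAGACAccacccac
Vim, chr17:81577011-81577260, plus strand: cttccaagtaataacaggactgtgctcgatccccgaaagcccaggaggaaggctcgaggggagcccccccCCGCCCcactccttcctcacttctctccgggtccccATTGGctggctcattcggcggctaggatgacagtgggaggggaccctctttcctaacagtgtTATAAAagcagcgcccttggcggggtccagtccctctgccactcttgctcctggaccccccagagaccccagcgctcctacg
Timp1, chrX:3771123-3771372, minus strand: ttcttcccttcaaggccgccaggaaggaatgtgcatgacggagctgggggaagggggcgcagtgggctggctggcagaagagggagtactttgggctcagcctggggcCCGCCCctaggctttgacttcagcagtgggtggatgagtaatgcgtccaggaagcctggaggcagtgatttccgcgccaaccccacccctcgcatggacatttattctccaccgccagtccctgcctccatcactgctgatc
Tgfb1, chr1:90324062-90324311, plus strand: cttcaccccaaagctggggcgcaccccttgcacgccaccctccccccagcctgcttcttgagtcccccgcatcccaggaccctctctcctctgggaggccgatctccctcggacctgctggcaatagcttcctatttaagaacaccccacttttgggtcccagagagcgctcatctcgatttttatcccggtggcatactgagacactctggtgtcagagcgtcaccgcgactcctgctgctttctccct
The TATA box was searched with the letters TATAAA and was found in 12.9% of 33469 RefSeq promoters of the same length. The box bound by the factor NF-Y was searched as CCAAT and was found in 34% of them. The GC box was searched as GGGCGG (30.5% of promoters), the site of the factor AP-1 as TGANTCA (6.34%) and an element bound by SMAD proteins as CAGACA (17.2%). The CArG box of serum response factor was searched as CCWWWWWWGG, with W for A or T, and was in 1.5%. Only exact matches were marked, so close variants of a motif, in Acta2 or elsewhere, were not counted. Acta2 held the SMAD letters, from 14 to 9 bases before the start. Vim held a TATA box, an NF-Y box and a GC box, Timp1 held a GC box and Tgfb1 held no match in this window. The marked matches do not overlap each other. These matches describe the letters of the window and were not tied to any measured difference.

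Col1a1 (ENSRNOG00000003897) encodes the alpha-1 chain of type I collagen, the main fibre of scar. In No SCI + Standard it was measured at 4.93, 1.61, 1.3, 0.971 and 1.33 CPM in replicates 1 to 5 (2.03 ± 1.64, SD, n = 5). In CONT SCI + Tiny the 5 rats had 3.77, 4.66, 8.61, 2.97 and 3.53 CPM (4.71 ± 2.26), and in CONT SCI + Large they had 1.66, 5.63, 3.9, 3.86 and 4.17 CPM (3.85 ± 1.42). Replicate 1 of the uninjured group stood above the other 4 uninjured rats and inside the range of both injured groups, so the groups overlapped. The counts behind these levels were low, from 19 to 200 per library.

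Among the Exercise rats, Col1a1 was measured at 7.05, 6.57, 12.7 and 10.7 CPM in No SCI (9.26 ± 2.94, n = 4) and at 8.19, 6.16, 5.97 and 10.3 CPM in CONT SCI (7.64 ± 2.01). The TX SCI rats had 8.06, 31.2, 11.9 and 4.06 CPM (13.8 ± 12.0). Levels in CONT SCI + SWIM were 20.9, 6.49, 3.18, 10.6 and 5.16 CPM (9.27 ± 7.04), and in CONT SCI + SWW they were 29.5, 14.5, 8.50, 16.2 and 2.17 CPM (14.2 ± 10.2). The transected and exercised groups each held 1 rat above 20 CPM, and all 5 groups overlapped. Col1a1 was the most variable member, with a coefficient of variation between rats of 26.3% to 87.1% over the 8 groups (median 60.02%). Ordered by mean, the 8 groups ran from CONT SCI + SWW down to No SCI + Standard, with every Exercise group above every In-Cage group. Of the 7 steps between neighbours, only those from CONT SCI to CONT SCI + Tiny and from CONT SCI + Large to No SCI + Standard exceeded the SD of both groups.

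Col3a1 (ENSRNOG00000003357), the chain of type III collagen that accompanies type I in scar, varied less. It ranged from 105 to 385 CPM over the 37 rats, and its group means lay between 155 ± 51.9 CPM in No SCI + Standard and 244 ± 96.9 CPM in CONT SCI + SWW. The order of the groups was close to that of Col1a1, but no step between neighbours exceeded the SD of both groups. Counts of Col1a1 per 100 counts of Col3a1 were 1.20 ± 0.504 in No SCI + Standard, compared with 2.67 ± 1.11 in CONT SCI + Tiny and with 2.29 ± 0.800 in CONT SCI + Large. The same measure was 5.00 ± 2.02 in No SCI, 3.85 ± 0.676 in CONT SCI, 5.27 ± 2.82 in TX SCI, 4.11 ± 2.06 in CONT SCI + SWIM and 5.18 ± 2.27 in CONT SCI + SWW. Every Exercise mean of this share, the lowest being 3.85 in CONT SCI, thus lay above every In-Cage mean, the highest being 2.67 in CONT SCI + Tiny. The means also differed within each set, from 1.20 to 2.67 in the In-Cage set and from 3.85 to 5.27 in the Exercise set. The share was not tested.

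Col1a2 encodes the other chain of type I collagen, which is assembled with the product of Col1a1. Its row held no read among 1052644198 counted reads. Without TMM scaling, the floor of 3 counts corresponds to 0.149 CPM in the smallest library and 0.0816 CPM in the largest. Of the 24613 genes, 5844 had 0 counts in all 37 libraries. The row is listed at 0 also in rats with up to 1020 counts of Col1a1, so it describes the row and not the transcript, and no level or fold is given for it. The cause was not tested.

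Acta2 (ENSRNOG00000058039), smooth muscle alpha actin, marks activated stellate cells as well as the muscle of vessel walls. It ranged from 1.18 to 4.20 CPM in No SCI + Standard, whereas the injured rats had 2.02 to 8.31 CPM in CONT SCI + Tiny and, for the other cage, 2.20 to 6.74 CPM in CONT SCI + Large. Among the sedentary Exercise groups it ranged from 3.25 to 6.90 CPM in No SCI, from 3.62 to 7.33 CPM in CONT SCI and from 2.41 to 6.33 CPM in TX SCI. In the exercised rats the 5 values were 6.17, 4.31, 1.48, 2.25 and 3.15 CPM in CONT SCI + SWIM and 5.09, 2.26, 1.95, 2.54 and 1.38 CPM in CONT SCI + SWW. In the SWW group 4 of 5 rats lay below every sedentary contused rat, and replicate 1 lay inside their range. Group means ran from 5.30 ± 1.55 CPM in CONT SCI to 2.61 ± 1.25 CPM in No SCI + Standard, and no neighbours in this order differed by more than both SDs.

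Vim (ENSRNOG00000018087), the intermediate filament of mesenchymal cells, ranged from 18.3 to 61.1 CPM. Its group means lay between 25.1 ± 8.09 CPM in No SCI + Standard and 40.2 ± 14.1 CPM in TX SCI. The TX SCI mean rested on replicate 2 at 61.1 CPM, as the other 3 transected rats had 31.5 to 36.2 CPM. No step between neighbouring groups exceeded both SDs.

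Tgfb1 (ENSRNOG00000020652) encodes the ligand that activates stellate cells, and it was the least variable member, with a median coefficient of variation of 15.2%. The In-Cage rats had 5.44, 5.02, 4.33, 4.86 and 5.52 CPM in No SCI + Standard. With contusion they had 5.75, 3.91, 6.55, 4.11 and 6.04 CPM in CONT SCI + Tiny and then 3.86, 3.97, 5.82, 7.90 and 4.92 CPM in CONT SCI + Large. The sedentary rats of the Exercise set had 7.83, 7.11, 8.09 and 10.2 CPM in No SCI, 8.05, 8.16, 8.56 and 8.24 CPM in CONT SCI, and 8.84, 10.0, 7.45 and 5.60 CPM in TX SCI. The exercised rats had 12.6, 10.8, 9.39, 13 and 10.6 CPM with swimming and 12.5, 13.1, 9.02, 13.1 and 11.3 CPM with shallow water walking. All 10 exercised rats lay above all 4 sedentary contused rats, whereas they overlapped the uninjured and transected rats of the same set. Those 4 contused rats spanned only 8.05 to 8.56 CPM, a coefficient of variation of 2.69%. Of all genes, 2.66% were higher than CONT SCI without overlap in the swimming group and 3.67% in the walking group. The share for both exercised groups together was not counted. The order of group means fell into 3 tiers, with the exercised groups at 11.8 ± 1.71 and 11.3 ± 1.49 CPM, the other Exercise groups from 7.97 to 8.30 CPM and the In-Cage groups from 5.03 to 5.30 CPM. The steps between tiers exceeded both SDs and the steps within tiers did not.

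Mmp2 (ENSRNOG00000016695) encodes a gelatinase made by stellate cells and fibroblasts. The 5 rats had 9.70, 6.90, 5.13, 5.32 and 4.71 CPM in No SCI + Standard. With contusion they had 12.0, 6.20, 10, 7.0 and 8.72 CPM in CONT SCI + Tiny and then 5.52, 7.62, 8.34, 7.03 and 7.41 CPM in CONT SCI + Large. In the Exercise set the levels were 11.6, 10.2, 11.1 and 9.79 CPM in No SCI and 9.65, 9.16, 5.47 and 9.72 CPM in CONT SCI, ranges that did not overlap, since the lowest uninjured rat stood just above the highest contused rat. TX SCI had 7.76, 14, 6.72 and 5.13 CPM, CONT SCI + SWIM had 11.9, 7.08, 4.73, 8.48 and 7.62 CPM, and CONT SCI + SWW had 13.1, 9.26, 6.71, 9.31 and 5.89 CPM. Each of these overlapped both of those groups. Of all genes tested in that comparison, 2.6% had ranges that did not overlap between CONT SCI and No SCI.

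Timp1 (ENSRNOG00000010208) encodes an inhibitor of matrix proteases. Its levels were 7.32, 4.10, 4.12, 4.14 and 4.28 CPM in No SCI + Standard, then 5.93, 6.77, 8.27, 5.38 and 7.17 CPM in CONT SCI + Tiny and then 4.31, 6.99, 5.91, 7.82 and 5.90 CPM in CONT SCI + Large. Of the uninjured rats, 4 lay within 4.10 to 4.28 CPM, below all 10 injured rats of the set, and replicate 1 lay among the injured rats. The sedentary Exercise groups had 4.37, 4.56, 5.45 and 5.55 CPM in No SCI, 4.81, 5.08, 3.72 and 5.13 CPM in CONT SCI, and 4.27, 7.37, 5.08 and 5.52 CPM in TX SCI. The exercised rats had 6.46, 3.92, 5.34, 4.18 and 4.05 CPM with swimming and 6.22, 4.44, 3.41, 3.64 and 3.81 CPM with shallow water walking. All 5 Exercise groups overlapped. Timp1 was the only member with its highest group mean in the In-Cage set, 6.70 ± 1.12 CPM in CONT SCI + Tiny.

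**Figure D1:**
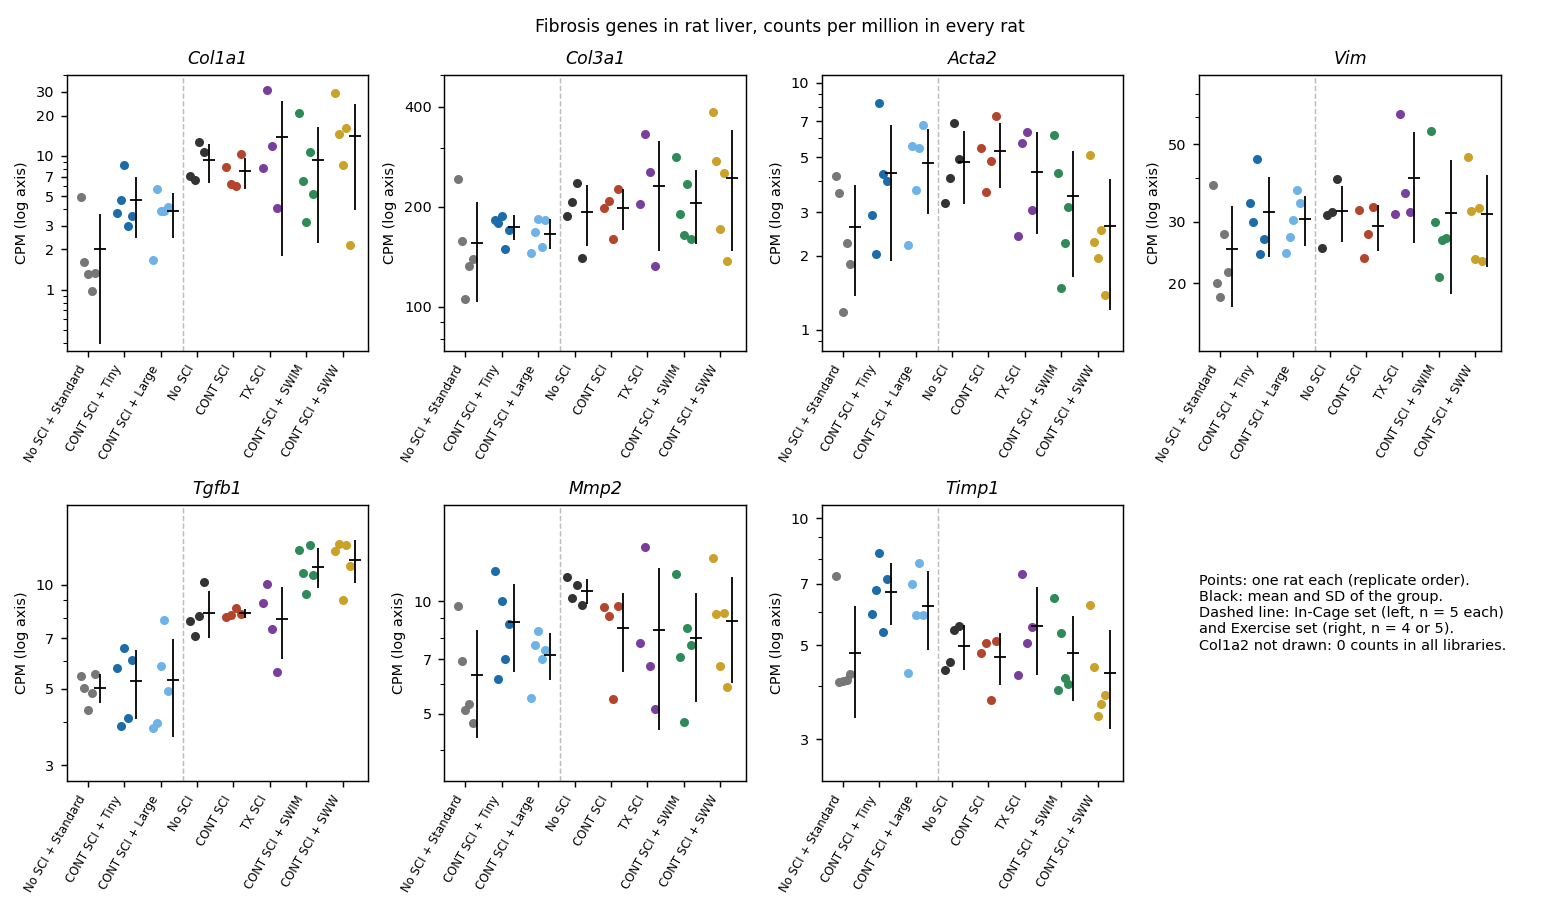
Levels of the 7 counted members in every rat, as CPM on a log axis, by group, with the mean and SD of each group in black and a dashed line between the In-Cage set (5 rats a group) and the Exercise set (4 or 5 rats a group). Col1a1 and Tgfb1 are lower to the left of the line, Tgfb1 is highest in the exercised groups, and replicate 1 of No SCI + Standard, the first point of each panel, is the highest of its group for 6 of the 7 members.

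The first question was whether the injured rats of the In-Cage set differed from the uninjured rats. For CONT SCI + Tiny minus No SCI + Standard, 0 of 7 members were called, against 12.5% of all genes tested. All 7 members had a positive log2 fold change, as did 49.7% of all genes, with a median of 0.45 against -0.0036 over all genes. The members also deviated together within groups, so their signs are not independent of each other. Col1a1 differed by 1.22 (SE 0.43), an estimate of 2.32-fold, with an adjusted p of 0.0729. Timp1 differed by 0.47 (SE 0.19, adjusted p 0.106) and Mmp2 by 0.45 (SE 0.22, adjusted p 0.169), while Tgfb1 differed by 0.04 (SE 0.18, adjusted p 0.884). Col3a1, the collagen with more counts, differed by 0.14 (SE 0.18, adjusted p 0.624). An unadjusted p under 0.05 was reached by 2 of the 7 members and by 34.3% of all genes, so the members' share was near that of the table. Each rat was also left out in turn, and these results turned on replicate 1 of No SCI + Standard. Without that rat the log2 fold change was 1.82 for Col1a1 (adjusted p 0.0055), 0.66 for Timp1 (adjusted p 0.0133) and 0.65 for Mmp2 (adjusted p 0.0351), and these 3 of 7 members were called, as were 25% of all genes. DESeq2 called Col1a1 with all rats included (log2 fold change 1.21, adjusted p 0.0245), as it did 21.5% of all genes.

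For CONT SCI + Large minus No SCI + Standard, which uses the same uninjured rats, 0 of 7 members were called, against 0.0337% of all genes. All 7 members were again positive, as were 48.2% of all genes, with a median log2 fold change of 0.26 against -0.02 over all genes. Col1a1 differed by 0.92 (SE 0.42, adjusted p 0.169) and Acta2 by 0.84 (SE 0.35, adjusted p 0.141), and Timp1 differed by 0.35 (SE 0.21, adjusted p 0.270). For Col3a1 the difference was 0.08 (SE 0.19, adjusted p 0.812). Without replicate 1 of No SCI + Standard, Col1a1 was called at 1.56 (adjusted p 0.0263), as were 10.1% of all genes. Without replicate 1 of CONT SCI + Large, the lowest of its group for 7 of 7 members, Acta2 was called at 1.02 (adjusted p 0.0483), as were 16.9% of all genes. An unadjusted p under 0.05 was reached by 2 of 7 members and 29.4% of all genes, and DESeq2 called 0 members. The injured rats in large and tiny cages were then compared with each other. No member was called by edgeR or DESeq2, against 0% of all genes tested by edgeR, and an unadjusted p under 0.05 was reached by 0 of 7 members and 2.9% of all genes. The 95% interval of the difference for Col1a1, from -1.0 to 0.41 on the log2 scale, covered differences in either direction.

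In the Exercise set the contrast of injury without a difference in cage size was CONT SCI minus No SCI, with all rats in tiny cages. The injury still came with its anaesthesia, surgery and drugs. No member was called by edgeR or DESeq2, against 0.00801% of all genes by edgeR. An unadjusted p under 0.05 was reached by 0 of 7 members and 4.49% of all genes, and the median log2 fold change of the members was -0.09 against -0.0025 over all genes. Col1a1 differed by -0.28 (SE 0.25, 95% interval -0.83 to 0.28, adjusted p 0.998) and Timp1 by -0.09 (SE 0.17, 95% interval -0.46 to 0.28). Mmp2, whose ranges did not overlap, differed by -0.33 (SE 0.18, adjusted p 0.998). The SD between rats was larger in TX SCI than in No SCI and in CONT SCI for all 7 members. In the study's alignment summary, every TX SCI library had a lower uniquely mapped share than every No SCI and CONT SCI library. Replicate 3 of CONT SCI + SWIM had the lowest share of all rats. Whether library quality adds to the spread was not tested. For TX SCI minus No SCI, 0 of 7 members were called, against 0.0638% of all genes, with Col1a1 at 0.59 (SE 0.52, adjusted p 0.722) and Vim at 0.34 (SE 0.24, adjusted p 0.631). For TX SCI minus CONT SCI, 0 of 7 were called, against 0.0321% of all genes, with Col1a1 at 0.86 (SE 0.52, adjusted p 0.504) and Vim at 0.46 (SE 0.23, adjusted p 0.408). An unadjusted p under 0.05 was reached by 0 of 7 members in both, against 12.1% and 13.4% of all genes, and DESeq2 called 0 members.

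The exercised groups were compared with CONT SCI, which both comparisons share. For CONT SCI + SWIM minus CONT SCI, 0 of 7 members were called, against 0.008% of all genes. Tgfb1 differed by 0.45 (SE 0.13, 95% interval 0.17 to 0.73, adjusted p 0.216) and was higher in 5 of 5 swimming rats than in any of the 4 sedentary rats, a separation in this direction shown by 2.66% of all genes. Acta2 differed by -0.61 (SE 0.36, adjusted p 0.504). Tgfb1 was the 1 member of 7 with an unadjusted p under 0.05, as were 13.1% of all genes, and DESeq2 called 0 members. For CONT SCI + SWW minus CONT SCI, 0 of 7 members were called, against 0.759% of all genes. Tgfb1 differed by 0.53 (SE 0.13, 95% interval 0.25 to 0.81, adjusted p 0.0733), with 5 of 5 walking rats above all 4 sedentary rats and 3.67% of all genes higher without overlap. Acta2 differed by -0.98 (SE 0.34, 95% interval -1.72 to -0.24, adjusted p 0.136), an estimate of 0.506-fold. Col1a1 differed by 0.91 in this comparison with an SE of 0.61 (adjusted p 0.428), so that Acta2 and Col1a1 had opposite signs. An unadjusted p under 0.05 was reached by 2 of 7 members and 20.8% of all genes. DESeq2 called both Tgfb1 (0.51, adjusted p 0.0122) and Acta2 (-1.01, adjusted p 0.0452), and 7.15% of all genes. Without replicate 1 of CONT SCI + SWW Acta2 was called at -1.37 (adjusted p 0.0402), as were 2.36% of all genes, and without replicate 5 Tgfb1 was called at 0.54 (adjusted p 0.0462), as were 4.24%.

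Against the uninjured rats of the same set, Tgfb1 differed by 0.45 with swimming (SE 0.16, adjusted p 0.365) and by 0.50 with shallow water walking (SE 0.16, adjusted p 0.116). Acta2 differed by -0.86 with walking (SE 0.35, adjusted p 0.192). Members called were 0 of 7 in both, against 0.00796% of all genes for swimming and 0.394% for walking, and DESeq2 called Tgfb1 in the latter (0.50, adjusted p 0.049), with 7.49% of all genes, and 0 members in the former. An unadjusted p under 0.05 was reached by 1 member with swimming and by 2 with walking, against 10.5% and 21% of all genes. The 2 forms of exercise were also compared directly. For CONT SCI + SWIM minus CONT SCI + SWW, 0 of 7 members were called, against 0% of all genes by edgeR, with 0 members and 5.43% of all genes at an unadjusted p under 0.05, and DESeq2 called 14 genes and 0 members. The difference was -0.07 for Tgfb1 (SE 0.14, 95% interval -0.37 to 0.23) and 0.38 for Acta2 (SE 0.41, 95% interval -0.50 to 1.27). When both exercised groups were joined into 10 rats, an alternative added after the data were seen, no member was called against CONT SCI or against No SCI.

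**Figure D2:**
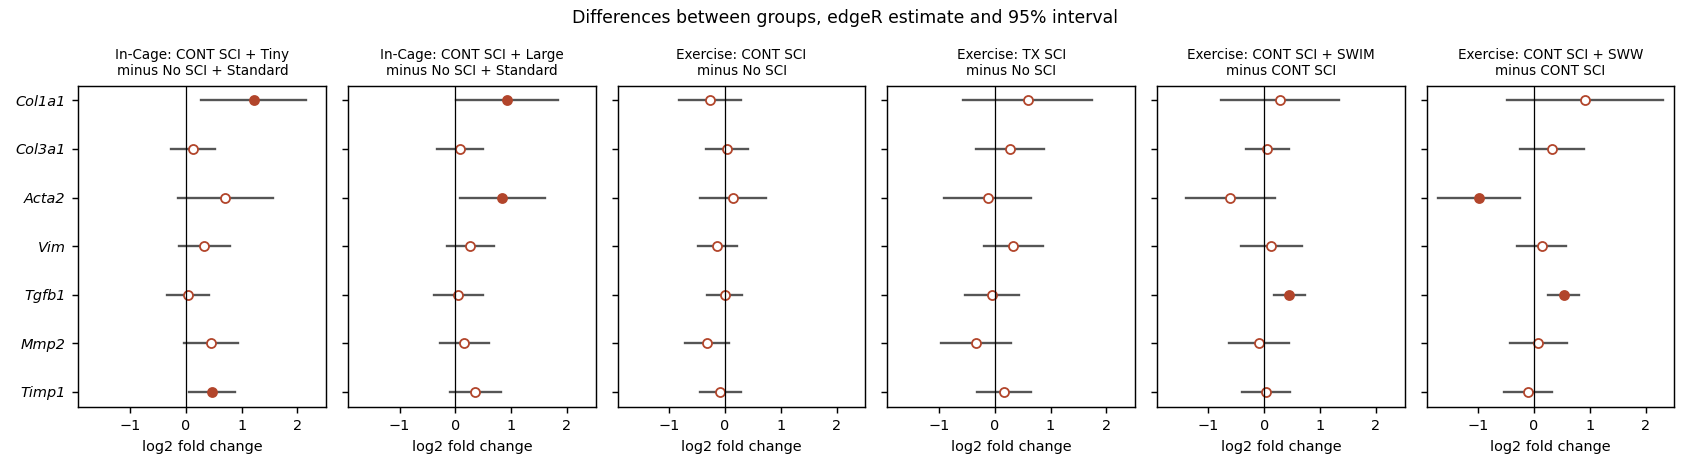
Log2 fold changes (points) with 95% intervals (lines) of the 7 counted members in 6 comparisons within a set, where filled points mark an unadjusted p under 0.05. All points lie right of 0 in both In-Cage panels, and in the panels of exercise the filled points are Tgfb1, at 0.45 and 0.53, and Acta2, at -0.98 with shallow water walking.

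Matched conditions were then compared across the sets, which differ in depth and were run as separate experiments. For CONT SCI minus CONT SCI + Tiny, both contused rats in tiny cages, 2 of 7 members were called, against 45.1% of all genes. Timp1 was lower in the Exercise set by -0.56 (SE 0.16, adjusted p 0.0119) and Tgfb1 was higher by 0.60 (SE 0.16, adjusted p 0.00904), and neither overlapped between the groups, as was true of 35.6% of all genes. For No SCI minus No SCI + Standard, 3 of 7 members were called, against 51.4% of all genes. Col1a1 was higher in the Exercise set by 2.17 (SE 0.42, adjusted p 0.00127), an estimate of 4.49-fold, Mmp2 by 0.71 (SE 0.21, adjusted p 0.0126) and Tgfb1 by 0.68 (SE 0.16, adjusted p 0.00449). These 3 did not overlap between the groups, as was true of 39.4% of all genes. Col3a1 was not called (0.27, SE 0.23, adjusted p 0.347). The uninjured groups also differed in cage size. The share of members called lay below that of all genes in both comparisons. In the contused rats, Col1a1 differed by 0.65 (SE 0.29, adjusted p 0.0904), and it was called at 0.98 (adjusted p 0.00231) without replicate 3 of CONT SCI + Tiny, as were 45.7% of all genes. In the uninjured rats, Acta2 differed by 0.84 (SE 0.34, adjusted p 0.0573) and was called by DESeq2 (adjusted p 0.0344), without replicate 1 of No SCI (1.00, adjusted p 0.0423) and without replicate 2 of No SCI + Standard (0.99, adjusted p 0.0475). In these 3 settings 54%, 44.9% and 46% of all genes were called. Without replicate 1 of No SCI + Standard, Acta2 (1.07, adjusted p 0.0217) and Vim (0.51, adjusted p 0.032) were called as well and Col1a1 stood at 2.78 (adjusted p 5.35e-05), with 51.1% of all genes called.

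Whether contusion went with another difference in the Exercise set than in the In-Cage set was tested with an interaction term over the 4 groups. No member was called by edgeR or DESeq2, against 0.199% of all genes by edgeR, and 3 of 7 members had an unadjusted p under 0.05, against 25.2% of all genes. All 7 interaction terms were negative, with a median of -0.57 on the log2 scale against -0.02 over all genes. Of all genes, 48.0% had a positive term. The terms were -1.51 for Col1a1 (SE 0.55, adjusted p 0.119), -0.80 for Mmp2 (SE 0.31, adjusted p 0.135) and -0.57 for Timp1 (SE 0.26, adjusted p 0.183). Without replicate 1 of No SCI + Standard these 3 of 7 were called, with terms of -2.12 (adjusted p 0.0241), -0.99 (adjusted p 0.0429) and -0.77 (adjusted p 0.0429), as were 8.2% of all genes. The uninjured rats were in standard cages in 1 set and in tiny cages in the other, so this term holds cage size as well as set.

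**Figure D3:**
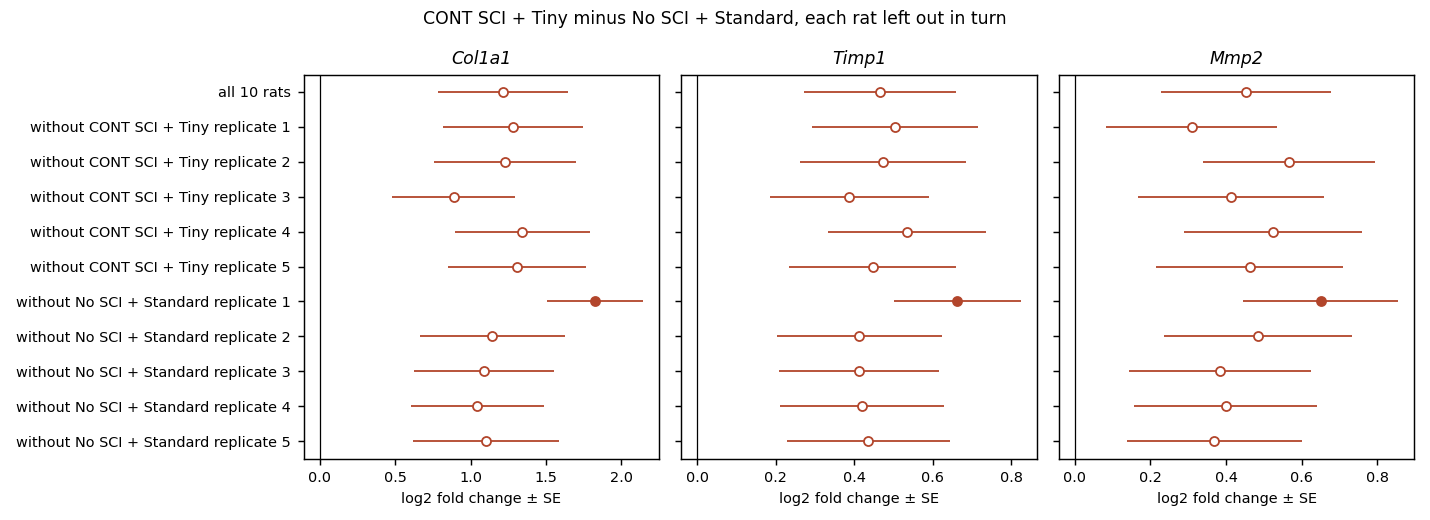
Log2 fold change ± SE of Col1a1, Timp1 and Mmp2 for CONT SCI + Tiny minus No SCI + Standard with all 10 rats and with each rat left out in turn, where filled points mark an adjusted p under 0.05. The 3 filled points are those without replicate 1 of No SCI + Standard, at 1.82, 0.66 and 0.65.

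Within groups, the members deviated together. The deviation of each rat from its group mean was taken on log2 CPM, which removes the differences between groups. In 25 of 37 rats at least 6 of the 7 members lay on the same side of the group mean, and in 9 rats all 7 did, 5 above and 4 below. No other set of 7 genes was scored in this way, so whether this is particular to the members was not tested. The members of a rat share its TMM factor, which moves their levels together, and these counts were not repeated under another scaling. Replicate 1 of No SCI + Standard, replicate 3 of CONT SCI + Tiny, replicate 2 of TX SCI and replicate 1 of both exercised groups had all 7 members above the mean. Replicate 1 of CONT SCI + Large, replicate 3 of No SCI + Standard and replicates 3 and 5 of CONT SCI + SWW had all 7 below. Median deviations of the rats with all 7 above ran from 0.34 in replicate 3 of CONT SCI + Tiny to 0.66 in replicate 1 of No SCI + Standard.

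**Figure D4:**
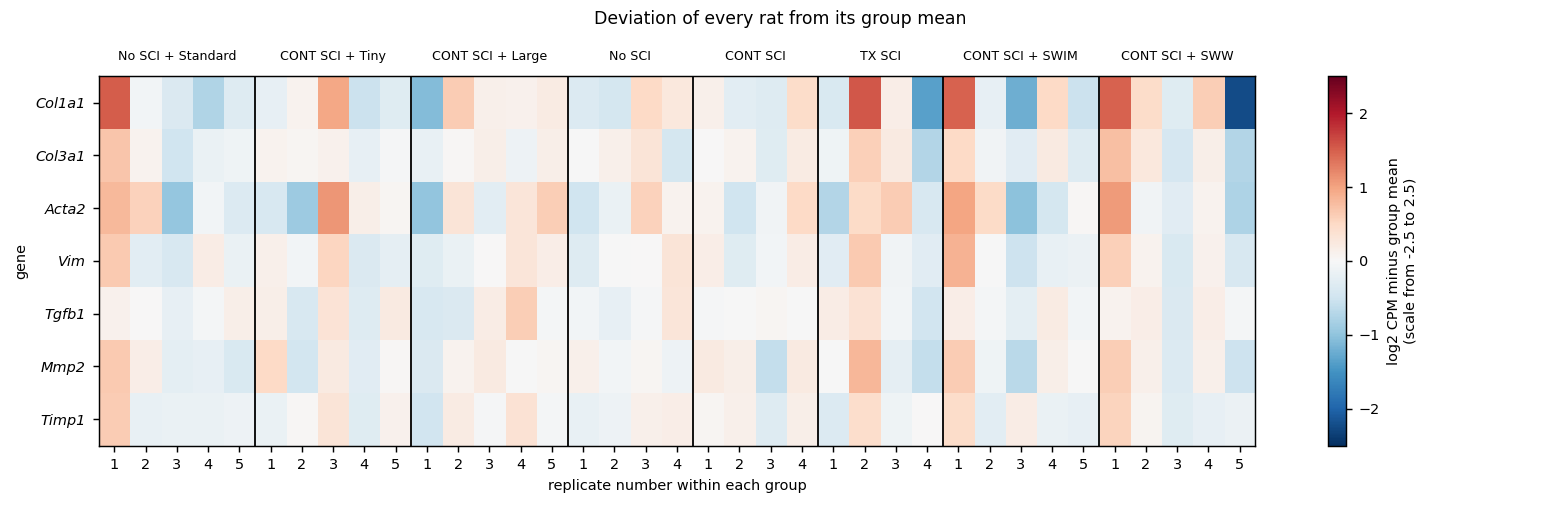
Deviation of log2 CPM from the group mean for each of the 7 counted members (rows) in each of the 37 rats (columns, by group and replicate number), red above and blue below the mean. Columns tend to hold a single colour, and Col1a1 spans the widest range, from 1.56 in replicate 2 of TX SCI to -2.24 in replicate 5 of CONT SCI + SWW.

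These deviations were correlated over the rats of each set, for 21 pairs of members per set and 42 in all, with p-values from 100000 permutations within groups, adjusted over the 42 pairs. In the In-Cage set (15 rats) Pearson's r was positive for all 21 pairs, from 0.27 to 0.89 with a median of 0.62, and 16 pairs had an adjusted permutation p under 0.05. In the Exercise set (22 rats) r was again positive for all 21 pairs, from 0.29 to 0.88 with a median of 0.64, and 18 pairs passed. The pairs share libraries and scaling, so they are not independent of each other. Pairs of other genes were not put through these permutations, so no share over all genes stands beside these counts.

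The collagens Col1a1 and Col3a1 correlated at r = 0.77 in the In-Cage set (rho = 0.82, permutation p 0.00334 and 0.00016, adjusted 0.0117 and 0.00147). The same pair had r = 0.88 in the Exercise set (rho = 0.83, permutation p 6e-05 and 0.00019, adjusted 0.000504 and 0.00147), and r was 0.55 and 0.83 in the 2 sets without the 2 rats farthest from the median. Col1a1 and Timp1 formed the closest In-Cage pair (r = 0.89, rho = 0.81, permutation p 0.00186 and 0.00365, adjusted 0.00977 and 0.0155), with r = 0.76 without the 2 farthest rats. That pair had r = 0.56 and rho = 0.49 in the Exercise set (permutation p 0.0361 and 0.0451, adjusted 0.0468 and 0.0728), so by rank it did not pass. The mesenchymal pair Acta2 and Vim reached r = 0.83 and rho = 0.85 in the Exercise set (permutation p 2e-05 and 1e-05, adjusted 0.00021 and 0.00042, where 1e-05 is the smallest p these permutations can give). Its r was 0.75 without the 2 farthest rats, and in the In-Cage set it was 0.61 (rho = 0.55, permutation p 0.0321 and 0.0568, adjusted 0.0449 and 0.076). The lowest Pearson's r of each set involved Tgfb1. Its r with Timp1 was 0.29 in the Exercise set (rho = 0.27, permutation p 0.275 and 0.291) and its r with Col3a1 was 0.27 in the In-Cage set (rho = 0.35, permutation p 0.155 and 0.195), none of which passed. By rank, 0 of the 6 pairs of Timp1 passed in the Exercise set, and 3 of the 6 pairs of Tgfb1 did.

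The In-Cage correlations rested on few rats. Without the 2 farthest rats of each pair the median r was 0.45 in the In-Cage set and 0.62 in the Exercise set. Leaving out replicate 1 of No SCI + Standard left 1 of 21 pairs with an adjusted p under 0.05, and leaving out replicate 1 of CONT SCI + Large or replicate 3 of CONT SCI + Tiny left 4 and 5 pairs. Without replicate 3 or replicate 5 of No SCI + Standard 9 and 10 pairs passed. In the Exercise set 13 to 19 pairs passed whichever rat was left out. By Spearman's rho 7 In-Cage and 12 Exercise pairs passed.

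**Figure D5:**
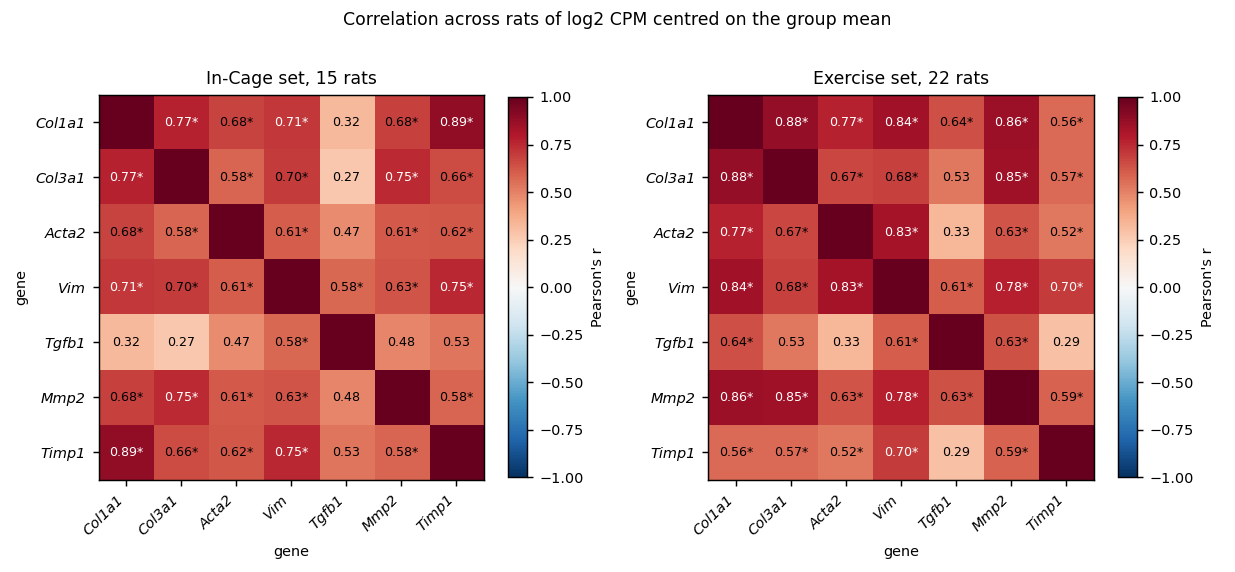
Pearson's r between the 7 counted members across rats, on log2 CPM centred on the group mean, for the In-Cage set (15 rats) and the Exercise set (22 rats), where an asterisk marks an adjusted permutation p under 0.05. All 21 values of each panel are positive, and the lowest value of each panel is in the row of Tgfb1.

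The other genes of the table were ranked by how closely their deviations followed those of Col1a1, Acta2 and Timp1, over 37 rats and 9098 genes with a mean of at least 100 counts. Col3a1 was the 6th closest to Col1a1 (rho = 0.80), Mmp2 the 13th (rho = 0.75), Vim the 15th (rho = 0.74) and Acta2 the 24th (rho = 0.71), while the median rho over all ranked genes was -0.03. Timp1 ranked 57th (rho = 0.62) and Tgfb1 118th (rho = 0.54). The closest gene of all was ENSRNOG00000018991 (rho = 0.83), whose name the files do not give. For Acta2 the closest was ENSRNOG00000017628 (rho = 0.83), and Vim was the 9th and Col1a1 the 11th closest. For Timp1 the closest was ENSRNOG00000052564 (rho = 0.79), and the first member was Col1a1 in place 140 (rho = 0.62), so Timp1 followed other genes of the table more closely than the collagens. These values are descriptions across rats, with no test.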

How the data were processed

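Poly(A) RNA of 37 rat livers was sequenced, and the authors aligned the reads to the rat genome (rn6) with STAR and counted them on Ensembl genes with HTSeq. The submitters' notes also name FastQC 0.10.1. The deposited values are raw counts per gene and sample, whole numbers without normalization. The library kit was stranded, and the authors counted with HTSeq's setting for reverse-stranded reads. All sample columns were used and 0 were left unmapped.

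Groups and replicate numbers came from the labels. The test was edgeR's quasi-likelihood F test (version 4.0.16, R 4.3.3) with TMM scaling and robust dispersions, after filterByExpr (min.count 10, min.total.count 15). Each of 13 pairs of groups was fitted on its own samples, and 1 interaction on 4 groups, with Benjamini-Hochberg adjustment over all genes tested and a threshold of 0.05. The SE is the size of the log2 fold change divided by the square root of F. CPM is the count per 1000000 counts of the library, with the library total scaled by TMM. Log2 CPM for correlations used TMM and a prior count of 2, and each correlation was repeated without the 2 rats farthest from the median of the first gene. Python 3 with numpy and pandas handled the tables, and the scripts were tested on simulated data. Of the 68 pairs of libraries of a group, none agreed within sampling noise (lowest reduced chi-square 31.0).

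Alternatives were DESeq2 1.42.0, RLE normalization, no filter, a fit on every group of the set, a block for the replicate number, and omission of each rat in turn. Joining both exercised groups was added after seeing the data. The 8 genes, the lists and the tests were chosen with earlier results of these data known. The 8 members are each described over the groups, but only some are named in each comparison. Values in every rat are given for those with an adjusted p under 0.05 by edgeR with all rats in some comparison. The genes of closest pattern are the 3 of highest Spearman rho, of which 1 is printed for each of Col1a1, Acta2 and Timp1.

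The files do not pair Ensembl identifiers with names, and the RefSeq table (47357 genes) held an Ensembl identifier for 0 of its rows. The wider fibrosis lists and the cell type markers (144 symbols in 16 lists) were therefore not analysed here, and the share of other cell types in each liver was not tested. Symbols of the 8 members came with the identifiers. Promoters came from RefSeq (GRCr8), which is not the build of the counts.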

Additional observations from a re-analysis of the deposited data

Results flagged for a closer look

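In a group of 4 or 5 rats, a value was marked where its gap to the nearest rat was a large share of the range of the group (Dixon's 95% limit of 0.829 for 4 rats and 0.710 for 5). Of 56 combinations of member and group, 5 were marked, in 4 rats, and chance marks about 1 in 20. Replicate 1 of No SCI + Standard was marked as high for Col1a1, at 4.93 CPM against 0.971 to 1.61 CPM in the other 4 rats, and for Timp1, at 7.32 CPM against 4.10 to 4.28 CPM. Vim was marked as high in replicate 1 of CONT SCI + SWIM, at 54.7 CPM against 20.9 to 30.04 CPM, and in replicate 2 of TX SCI, at 61.1 CPM against 31.5 to 36.2 CPM. Mmp2 was marked as low in replicate 3 of CONT SCI, at 5.47 CPM against 9.16 to 9.72 CPM. The 3 rats marked as high were each the highest of their group for 6 of the 7 counted members. The same held for unmarked rats, namely replicate 4 of CONT SCI, replicate 1 of CONT SCI + SWW and replicate 3 of CONT SCI + Tiny.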

How the results depend on the processing

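Over 98 estimates (7 members in 14 comparisons) and 1442 values under the alternatives, 20 calls were gained and 1 was lost. Signs changed in 87 values, all with an unadjusted p of at least 0.05 before and after, and 0 called values changed sign. RLE normalization and the removal of the filter kept the number of members called in all 14 comparisons, and so did fitting all groups of a set in the comparisons within a set. DESeq2 called 1 member for CONT SCI + Tiny minus No SCI + Standard (0 by edgeR), 2 for CONT SCI + SWW minus CONT SCI (0) 1 for CONT SCI + SWW minus No SCI (0) and 4 for No SCI minus No SCI + Standard (3).

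With each rat left out in turn, members called ranged from 0 to 3 for CONT SCI + Tiny minus No SCI + Standard, from 0 to 1 for CONT SCI + Large minus No SCI + Standard, from 0 to 1 for CONT SCI + SWW minus CONT SCI, from 2 to 3 for CONT SCI minus CONT SCI + Tiny, from 3 to 5 for No SCI minus No SCI + Standard and from 0 to 3 for the interaction, and were 0 in the other 8 comparisons. Pairs of members that correlated ranged from 1 to 18 of 21 in the In-Cage set (16 with all rats) and from 13 to 19 in the Exercise set (18 with all rats). By Spearman's rho they were 7 and 12.

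Replicate numbers did not pair the rats: no comparison had a correlation over 0.1 for every pair of equal numbers (range -0.54 to 0.65). With the number as a block, 1 member was called in place of 2 for CONT SCI minus CONT SCI + Tiny, and no other count of members changed. Crossed pairings were not run, and the interaction was not fitted with a block.

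Calls over all genes moved more than those of the members. DESeq2 called 2547 genes for CONT SCI + Tiny minus No SCI + Standard (1479 by edgeR), 1409 for CONT SCI + Large minus No SCI + Standard (4), 904 for CONT SCI + SWW minus CONT SCI (96), 949 for CONT SCI + SWW minus No SCI (50) and 789 for the interaction (25). For CONT SCI + Tiny minus No SCI + Standard, leaving out a rat gave 15 to 2998 genes, for CONT SCI + Large minus No SCI + Standard 0 to 2020, for CONT SCI + SWW minus CONT SCI 0 to 533 and for the interaction 1 to 2010. For TX SCI it called 291 genes against No SCI (8 by edgeR) and 368 against CONT SCI (4), for swimming 270 against CONT SCI (1) and 180 against No SCI (1), for CONT SCI minus No SCI 67 (1), and 14 and 3 where edgeR called 0. Fitting every group of a set gave 899 genes for CONT SCI + Tiny and 935 for CONT SCI + Large against No SCI + Standard, 268 and 135 for TX SCI against No SCI and CONT SCI, and 272 and 20 for shallow water walking against the same groups. Counts per library went down to 19 for Col1a1 and 28 for Acta2, the thinnest of the 7 members, which limits both at this depth.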
